A study of Mus musculus with 21 samples.

Results

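Tyrobp, Trem2, Clec7a, Lpl, Axl, Spp1, Itgax, Apoe, Cd9 and Csf1 belong to the gene programme that microglia switch on around injured or degenerating neurons, and they are described here in the cerebellum and in cultured granule cells of cystatin B deficient mice. All probe sets annotated to a single one of these 10 genes were taken, and knockout was set against wild type within each experiment. This gave 15 of the 45037 probe sets tested, for 9 of the 10 genes. Csf1 had 4 probe sets, Trem2, Lpl and Axl had 2 each, and Tyrobp, Clec7a, Itgax, Apoe and Cd9 had 1 each. Spp1, which encodes osteopontin, had no probe set annotated to it alone, so its expression was not analysed here.

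Cystatin B inhibits lysosomal cysteine proteases, and its loss causes progressive myoclonus epilepsy of Unverricht-Lundborg type. The Affymetrix mouse arrays analysed here held RNA from 4 Cstb-/- and 4 wild type cerebella at postnatal day 7 (P7), from 3 Cstb-/- and 3 wild type cerebella at P30, and from 3 Cstb-/- and 4 wild type cultures of cerebellar granule cells, prepared from mice of postnatal day 5 and kept for 2 days in vitro. The methods describe more hybridized animals at P7 and for the cultures than the arrays used here. They state that 1 P7 array of each genotype and 1 Cstb-/- culture array were dropped after a principal component analysis. These exclusions do not account for all the culture arrays that are absent here, in either genotype. All animals were of the 129SvJ strain, Cstb-/- mice carried the constitutive tm1Rm allele in all cells, and wild type littermates served as controls. The granule cell cultures of both genotypes had received cytosine arabinoside against the growth of glia, so few microglia or astrocytes were intended in them. By their labels the P7 arrays held 3 males and 1 female among Cstb-/- mice, against 1 male and 3 females among wild type mice. The question put to these data was how Tyrobp, Trem2 and the genes of the same microglial programme differed between genotypes before the first symptoms (P7), after symptom onset (P30) and in neuron-enriched cultures.

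Trem2 is a receptor for lipids and lipoproteins on the surface of microglia, and Tyrobp, also called DAP12, is the transmembrane adaptor that signals for it through the kinase Syk. In mouse brains with amyloid or degenerating neurons, microglia pass from a homeostatic state to one called disease-associated (DAM). Tyrobp and Apoe rise early in that passage, whereas Clec7a, Lpl, Axl, Itgax, Cd9, Csf1 and Spp1 are typical of its later, Trem2-dependent step.

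The targeted gene went with the labels. Over its 2 probe sets, Cstb had log2 differences between knockout and wild type from -3.10 to -1.86 in the 3 experiments, and every Cstb-/- array lay below every wild type array. Sex labels did not all go with the sex genes Xist and Eif2s3y. At P7 they did on all 8 arrays. At P30, Cstb-/- array 1 was labelled female, although the methods give all P30 mice as male, and Xist lay between -0.03 and 0.15 on the 3 Cstb-/- arrays and between -0.08 and 0.03 on the 3 wild type arrays, so this array did not stand apart. In the cultures, Cstb-/- array 1 was labelled male with Eif2s3y at -2.33 and Cstb-/- array 2 was labelled female with Eif2s3y at 1.78, and wild type arrays 7 and 8 had Xist at -0.23 and 0.32 together with Eif2s3y at 0.92 and 0.00. Values with these arrays left out are given beside the results that rest on them. The deposited signals were centred per probe set within each experiment, so the level of a gene is not known, the presence or absence of a cell type's markers cannot be read, and only differences between arrays of 1 experiment can be given. In tissue RNA, more cells of a type and more RNA of a gene per cell cannot be told apart.

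In the P30 cerebellum, 4 probe sets of 3 genes were higher in Cstb-/- mice. These were the probe sets of Tyrobp, the Trem2 adaptor, and Clec7a, a receptor for fungal beta-glucans also known as dectin-1, and both probe sets of Lpl, the lipoprotein lipase that releases fatty acids from lipoproteins. None was lower. To be called, a probe set had to differ by at least 1.3-fold with an adjusted p below 0.05 (limma, Benjamini-Hochberg correction over all 45037 probe sets). By that rule 0.144% of all probe sets were called at P30 and 0.138% were called higher. All Cstb-/- arrays lay above all wild type arrays for 8 of the 15 probe sets, against 6.24% of all probe sets. By the equal-variance test that the methods name, corrected over all probe sets, none of the 4 was called (adjusted p from 0.143 for Tyrobp to 0.603 for Lpl 1431056_a_at), nor was any probe set of the gene lists used at P30, and that test called 1 probe set in all. The methods also name filters on expression and fold. Corrected over probe sets past the fold alone, the same test called 6 of the 15 probe sets, of 5 genes, all higher, among 210 in all. The median log2 difference was 0.29 over the 15 probe sets and -0.01 over all probe sets tested.

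Array values below are log2 signals relative to the mean of the wild type arrays of the same experiment. Tyrobp (probe set 1450792_at) was at 2.24, 2.14 and 2.23 on the 3 Cstb-/- arrays, against -0.20, 0.12 and 0.09 on the wild type arrays. The Cstb-/- arrays were nearly equal and lay far above the wild type range. The log2 difference was 2.20 ± 0.10 (SE, n = 3 each), a 4.61-fold increase (limma, adjusted p = 2.06e-05). Tyrobp ranked 4 of all 45037 probe sets by the size of the increase. With each array left out in turn the log2 difference stayed between 2.10 and 2.26 and was called in 6 of 6 fits.

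The receptor that Tyrobp serves gave 2 different readings. The Trem2 probe set 1421792_s_at was at 0.40, 0.60 and 0.69 on the Cstb-/- arrays, against -0.08, 0.20 and -0.12 on the wild type arrays. All Cstb-/- values lay above all wild type values, but the difference of 0.57 ± 0.11 (SE, 1.48-fold) did not pass the test (limma, adjusted p = 0.163). It was called in 1 of the other settings, the test of the methods corrected over probe sets past the fold (adjusted p = 0.0427). The other Trem2 probe set, 1421226_at, was at -0.06, -0.17 and 0.06 on the Cstb-/- arrays, against 0.15, 0.04 and -0.19 on the wild type arrays, and the groups overlapped (difference -0.06 ± 0.10, adjusted p = 0.924). In Affymetrix naming the ending _s_at marks probes shared between several transcripts, and which probe set reports Trem2 better was not tested.

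Clec7a (1420699_at) was at 1.83, 1.96 and 1.91 on the Cstb-/- arrays, against -0.26, 0.37 and -0.11 on the wild type arrays. The wild type arrays spread more widely than the Cstb-/- arrays, yet the gap between the groups was much larger than either spread. The log2 difference was 1.90 ± 0.14 (SE), or 3.73-fold (limma, adjusted p = 0.000809), and it was called in 6 of 6 fits with 1 array left out.

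The lipid genes differed in size of effect. Lpl probe set 1415904_at was at 1.88, 2.14 and 1.88 on the Cstb-/- arrays, against 0.20, -0.14 and -0.06 on the wild type arrays, a 3.90-fold increase (log2 difference 1.96 ± 0.11, adjusted p = 0.000112). Its second probe set, 1431056_a_at, was at 0.97, 1.15 and 0.78 on the Cstb-/- arrays, against -0.08, -0.16 and 0.24 on the wild type arrays, a 1.95-fold increase (log2 difference 0.97 ± 0.13, adjusted p = 0.029). Both Lpl probe sets thus showed groups that did not overlap, the first with about the size seen for Tyrobp and Clec7a. The first was called in 6 of 6 fits with 1 array left out. The call of the second was lost without Cstb-/- array 1 (adjusted p = 0.158), without Cstb-/- array 2 (0.0584), without wild type array 1 (0.184) and without wild type array 2 (0.126). Apoe, the main apolipoprotein of the brain, was at 0.28, 0.30 and 0.29 on the Cstb-/- arrays, against 0.00, -0.06 and 0.06 on the wild type arrays. The groups were apart, but the difference of 0.29 ± 0.07 (1.22-fold) was below the fold required and did not pass the test (adjusted p = 0.326).

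Cd9, a tetraspanin of the plasma membrane, came closest to the threshold among the probe sets not called. It was at 0.45, 0.69 and 0.60 on the Cstb-/- arrays, against -0.05, -0.04 and 0.09 on the wild type arrays, a difference of 0.58 ± 0.09 or 1.5-fold (adjusted p = 0.0548). Cd9 was called with array weights (adjusted p = 0.0142), by the test of the methods corrected over probe sets past the fold (0.0222) and with probe sets averaged per gene (0.0318), and in none of the 6 fits with 1 array left out. Axl, a receptor kinase that takes up apoptotic cells bridged by Gas6, was at 0.59, 0.48 and 0.25 in probe set 1423586_at on the Cstb-/- arrays, against -0.02, -0.15 and 0.17 on the wild type arrays. Here too the groups did not overlap, with a difference of 0.44 ± 0.11 (adjusted p = 0.361). The second Axl probe set, 1438621_x_at, whose ending marks probes that can also match other sequences, was at -0.10, 0.05 and -0.13 on the Cstb-/- arrays, against 0.03, 0.02 and -0.04 on the wild type arrays.

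Itgax, the integrin chain CD11c that dendritic cells and some microglia carry, was at 0.06, 0.39 and 0.30 on the Cstb-/- arrays, against 0.26, -0.03 and -0.23 on the wild type arrays. The groups overlapped (difference 0.25 ± 0.13, adjusted p = 0.71). Csf1, the growth factor on which microglia depend through the receptor Csf1r, had overlapping groups throughout. Its probe set 1448914_a_at was at 0.24, 0.16 and -0.03 on the Cstb-/- arrays, against 0.05, -0.13 and 0.08 on the wild type arrays. The log2 differences of its 4 probe sets lay between -0.09 and 0.12.

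**Figure D1:**
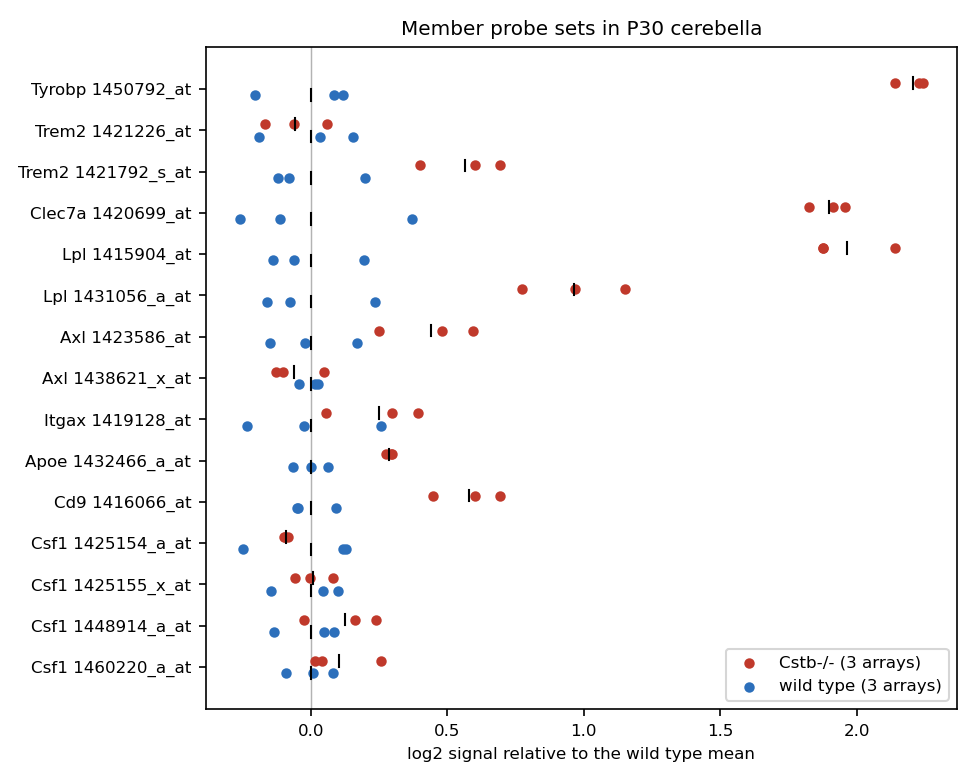
Log2 signal of each of the 15 member probe sets on the 3 Cstb-/- arrays (red) and 3 wild type arrays (blue) of P30 cerebella, relative to the wild type mean; points are arrays and black ticks are group means. Tyrobp, Clec7a and both Lpl probe sets stand clear of the wild type arrays, with Tyrobp between 2.14 and 2.24 on the Cstb-/- arrays.

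PU.1, a transcription factor that sets microglial identity, binds ETS sites with a purine-rich core in the promoters of many microglial genes. Promoters of 8 of the 10 genes were matched in RefSeq (assembly GRCm38.p6), 12 in all, each from 250 bases before to 50 bases after a start site. Those of Tyrobp and Lpl were not among them. Both strands were searched. The PU.1 type core GAGGAA was found in 7 of the 12 promoters, of 5 genes, against 28.3% of 32851 mouse promoters of this length, and its longer form GAGGAAGT, which overlaps it, in 1 (Spp1), against 3.2%. The AP-1-like pattern TGANTCA, where N is any base, was found in 2 promoters (Trem2 and Itgax), against 7.81%. The Trem2 match, TGAATCA, lacks the central C or G of the usual AP-1 site, whereas the Itgax match is TGAGTCA. The E-box CACGTG of the MITF and TFE family, lysosomal regulators, was found in 0, against 7.15%. Several of the 12 promoters belong to the same gene, and those of Clec7a overlap. The 250 bases upstream of the start site are shown for Clec7a, which rose at P30, and for Trem2, the receptor coupled to Tyrobp. Both run 5′ to 3′ on the strand of the gene, and capitals mark the PU.1 type core and, at the end of the Trem2 stretch, the TGANTCA match. Clec7a lies on the minus strand (chr6:129472780-129473029) with the core at position -96, counted from the start site. Trem2 lies on the plus strand (chr17:48346151-48346400) with the core on the opposite strand at -40 and the TGANTCA match at -9. A match describes the letters only and shows no binding.
Clec7a: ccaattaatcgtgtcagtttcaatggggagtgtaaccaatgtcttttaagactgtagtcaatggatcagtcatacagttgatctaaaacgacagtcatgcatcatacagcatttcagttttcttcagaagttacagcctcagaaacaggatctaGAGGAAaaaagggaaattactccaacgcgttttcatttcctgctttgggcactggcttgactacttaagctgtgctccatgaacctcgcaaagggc
Trem2: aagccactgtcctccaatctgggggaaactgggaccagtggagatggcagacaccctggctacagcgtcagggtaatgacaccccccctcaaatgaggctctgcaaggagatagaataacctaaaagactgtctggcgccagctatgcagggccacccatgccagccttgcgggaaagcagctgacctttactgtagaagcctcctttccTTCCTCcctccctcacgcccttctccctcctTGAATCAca

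At P7, before symptoms, 0 of the 15 probe sets were called, as were 0.00666% of all probe sets (3 of 45037). At an unadjusted p under 0.05 there were 2, both of Csf1, against 9.45% of all probe sets, and the test of the methods called 0 as well. Tyrobp was at 0.05, 0.03, 0.00 and 0.21 on the Cstb-/- arrays, against 0.08, -0.12, 0.07 and -0.03 on the wild type arrays. Clec7a was at 0.04, 0.01, -0.09 and 0.16 on the Cstb-/- arrays, against -0.03, -0.02, -0.08 and 0.13 on the wild type arrays. Both genes, each far apart between genotypes at P30, had overlapping groups with log2 differences of 0.07 ± 0.08 and 0.03 ± 0.08 (SE, n = 4 each). Lpl (1415904_at) was at 0.01, -0.26, -0.31 and -0.35 on the Cstb-/- arrays, against 0.02, 0.05, 0.19 and -0.26 on the wild type arrays (difference -0.23 ± 0.11, adjusted p = 0.546). The second Lpl probe set, 1431056_a_at, had the opposite sign (0.12 ± 0.14, adjusted p = 0.802). Trem2 had differences of 0.05 ± 0.08 (1421226_at, adjusted p = 0.858) and 0.07 ± 0.12 (1421792_s_at, adjusted p = 0.862).

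Over the 15 probe sets the P7 log2 differences lay between -0.23 and 0.24, with a median of 0.07, against 0.01 over all probe sets. All 15 had overlapping groups, and in all of the array data at P7 the Cstb-/- arrays lay above the wild type arrays for 2.8% of probe sets. The 2 Csf1 probe sets were 1448914_a_at (0.24 ± 0.09, unadjusted p = 0.0212, adjusted p = 0.472) and 1425154_a_at (0.20 ± 0.09, unadjusted p = 0.0486, adjusted p = 0.525). On the first, Csf1 was at 0.14, 0.17, 0.24 and 0.42 on the Cstb-/- arrays, against -0.16, 0.17, -0.06 and 0.05 on the wild type arrays. The lowest Cstb-/- value was below the highest wild type value, so the groups touched.

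Markers of the microglia and macrophage line had 0 of 27 probe sets called at P7 (3 at an unadjusted p under 0.05, 0 by the test of the methods), and averaged -0.03 to 0.18 on the Cstb-/- arrays and -0.01 to 0.01 on the wild type arrays. Lists of other tissue also varied between arrays at this age. Choroid plexus genes averaged -0.33, -2.13, -2.85 and -2.81 on Cstb-/- arrays 1, 2, 3 and 5, and -0.23 to 0.16 on the wild type arrays. Cstb-/- array 1 thus lay near the wild type arrays. Oligodendrocyte genes averaged 0.30 to 0.67 on the Cstb-/- arrays and -0.20 to 0.18 on the wild type arrays. In either list 0 were called (12 of 15 and 20 of 28 at an unadjusted p under 0.05). Their part in the Csf1 values was not tested.

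Whether the effect of the knockout differed between the ages was tested directly, as the P30 difference minus the P7 difference (limma, adjusted p under 0.05, no fold required). It was larger at P30 for Tyrobp by 2.13 ± 0.12 (SE, adjusted p = 2.04e-07), for Lpl 1415904_at by 2.19 ± 0.17 (adjusted p = 6.8e-06) and for Clec7a by 1.87 ± 0.16 (adjusted p = 2.92e-05). These were 3 of the 15 probe sets, against 0.127% of all probe sets. The second Lpl probe set, 1431056_a_at, was not called (difference of effects 0.84 ± 0.21, adjusted p = 0.184). Cd9 had a difference of effects of 0.65 ± 0.13 (adjusted p = 0.0763), Axl 1423586_at of 0.52 ± 0.15 (adjusted p = 0.242) and Trem2 1421792_s_at of 0.49 ± 0.18 (adjusted p = 0.369). The 4 Csf1 probe sets had differences of effects from -0.29 to 0.03. P7 and P30 were separate experiments with unlike mixes of sex labels, so age cannot be told apart from these.

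**Figure D2:**
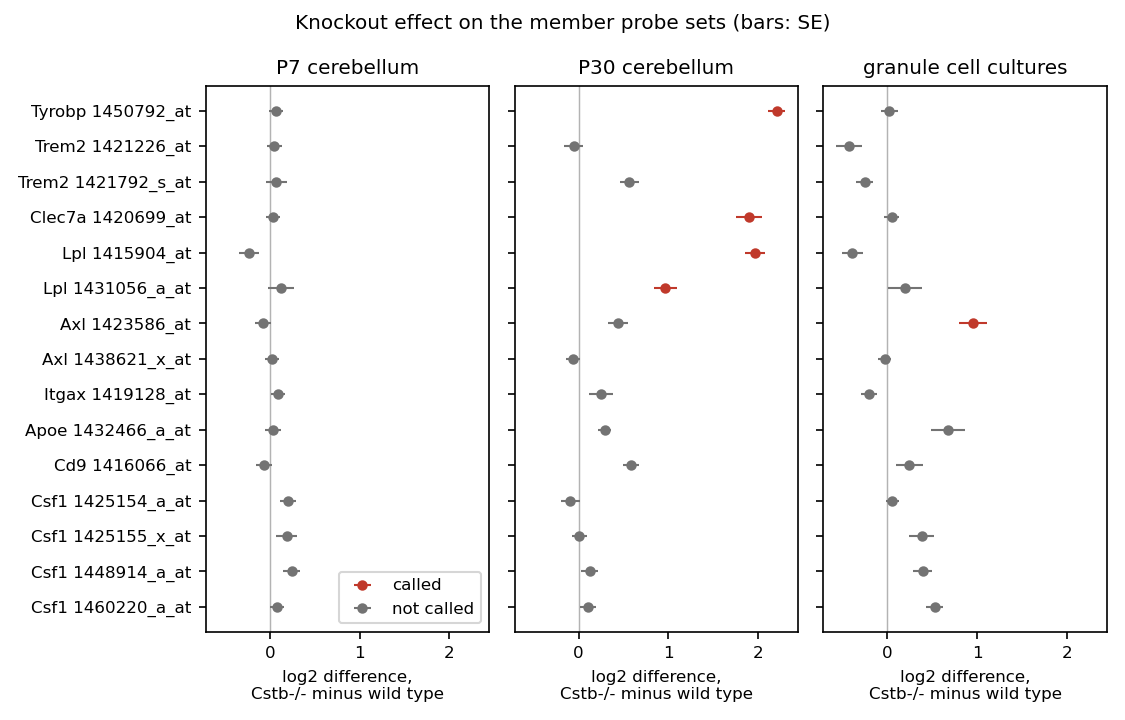
Log2 difference between Cstb-/- and wild type for the 15 member probe sets in P7 cerebella, P30 cerebella and granule cell cultures; points are estimates, bars are SE, and red marks probe sets that passed the fold and the adjusted p. The points of P7 lie between -0.23 and 0.24, whereas Tyrobp, Lpl 1415904_at and Clec7a reach about 2 at P30. In culture Axl 1423586_at is the 1 probe set called.

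In the granule cell cultures 1 member probe set, of Axl, was higher in Cstb-/- cultures. Tyrobp (0.02) and Clec7a (0.05) had log2 differences near 0 and Lpl 1415904_at had -0.39. With the stricter adjusted p under 0.01 that the study used for cultures, 1 of the 15 probe sets was called, against 2.54% of all probe sets in either direction and 2.07% called higher. For 3 probe sets all Cstb-/- arrays lay above all wild type arrays, against 13.4% of all probe sets, and for 2 all lay below, against 9.33%. These shares are near the background of this experiment. At an unadjusted p under 0.05 there were 8 of the 15, against 31.6% of all probe sets, and the median log2 difference was 0.05, against -0.02 over all probe sets.

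Axl 1423586_at was at 1.00, 0.85 and 1.02 on the Cstb-/- arrays, against 0.44, -0.21, -0.21 and -0.02 on the wild type arrays. Every Cstb-/- culture lay above every wild type culture, with wild type array 4 the nearest. The log2 difference was 0.96 ± 0.16 (SE, n = 3 and 4), or 1.94-fold, and its adjusted p of 0.00981 (limma) was close to the threshold. The call was kept without wild type array 4 and lost in each of the other 6 fits with 1 array left out: without Cstb-/- array 1, 2 or 3 (adjusted p = 0.0413, 0.0117 and 0.0515) and without wild type array 5, 7 or 8 (adjusted p = 0.0315, 0.0361 and 0.0421). The difference itself stayed between 0.88 and 1.10 in all 7. The second Axl probe set, 1438621_x_at, was at -0.13, -0.01 and 0.05 on the Cstb-/- arrays, against -0.01, -0.01, -0.01 and 0.02 on the wild type arrays.

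Csf1 1460220_a_at was at 0.50, 0.56 and 0.51 on the Cstb-/- arrays, against 0.17, -0.11, -0.13 and 0.06 on the wild type arrays, groups that did not overlap, with a difference of 0.53 ± 0.09 (1.44-fold, adjusted p = 0.0121). Csf1 1448914_a_at likewise had no overlap, at 0.52, 0.42 and 0.25 on the Cstb-/- arrays, against 0.18, 0.02, -0.19 and -0.01 on the wild type arrays (difference 0.40 ± 0.11, adjusted p = 0.0515). Apoe was at 0.90, 0.26 and 0.87 on the Cstb-/- arrays, against 0.35, -0.26, -0.09 and 0.00 on the wild type arrays. Cstb-/- array 2 lay within the wild type range, and the difference was 0.68 ± 0.19 (adjusted p = 0.058). None of these 3 passed the threshold of the cultures. Nor did Cd9 (0.24 ± 0.15, adjusted p = 0.281), Csf1 1425154_a_at (0.05 ± 0.07, adjusted p = 0.615) or Csf1 1425155_x_at (0.38 ± 0.14, adjusted p = 0.109).

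Lpl 1415904_at was at -0.49, -0.17 and -0.51 on the Cstb-/- arrays, against 0.19, -0.14, -0.08 and 0.03 on the wild type arrays, below the wild type arrays in all 3 cultures (difference -0.39 ± 0.12, adjusted p = 0.0669). Itgax was at -0.17, -0.20 and -0.25 on the Cstb-/- arrays, against 0.18, 0.02, -0.06 and -0.15 on the wild type arrays (difference -0.21 ± 0.09, adjusted p = 0.16). Trem2 had differences of -0.42 ± 0.14 (1421226_at, adjusted p = 0.0933) and -0.25 ± 0.09 (1421792_s_at, adjusted p = 0.112). The Tyrobp difference was 0.02 ± 0.09, from -0.15 to 0.21 on the Cstb-/- arrays against -0.02 to 0.01 on the wild type arrays. For Clec7a it was 0.05 ± 0.08. Values of several arrays were exactly equal for 51.3% of probe sets in this experiment. Among them were Tyrobp, with 4 of 7 arrays tied, and Clec7a, with 4 tied arrays that include all 3 Cstb-/- cultures, so the spread of these 2 genes in culture was not fully measured. How the ties bear on the tests was not tested.

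**Figure D3:**
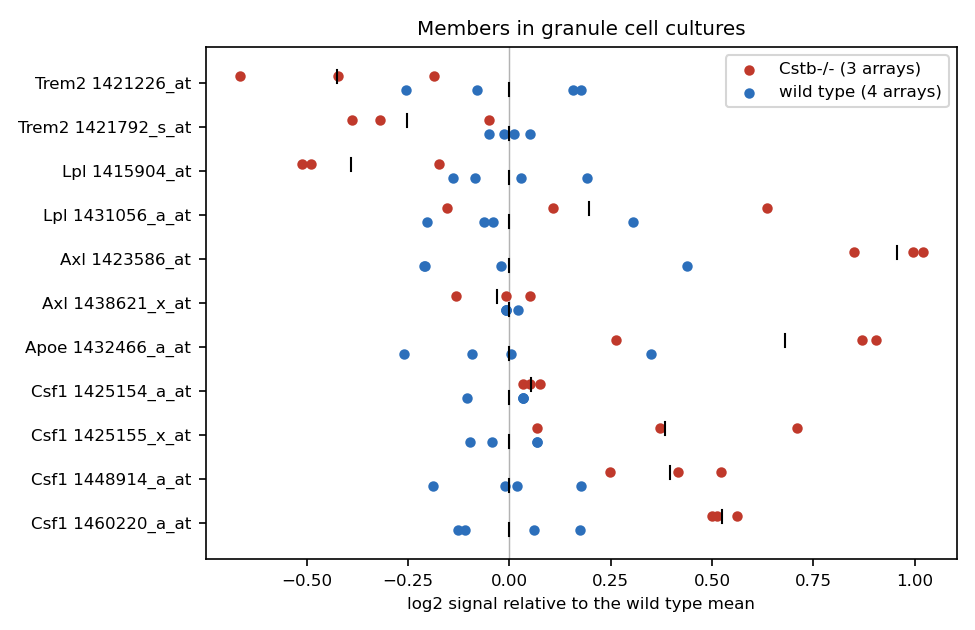
Log2 signal of the Trem2, Lpl, Axl, Apoe and Csf1 probe sets on the 3 Cstb-/- arrays (red) and 4 wild type arrays (blue) of granule cell cultures, relative to the wild type mean; points are arrays and black ticks are group means. Axl 1423586_at lies between 0.85 and 1.02 on the Cstb-/- arrays and reaches 0.44 on the wild type arrays.

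The effect in culture was also set against that in the P7 cerebellum, the tissue nearest in age. It was larger in culture for Axl 1423586_at by 1.03 ± 0.18 (limma, adjusted p = 0.00136), for Apoe by 0.64 ± 0.21 (adjusted p = 0.0451) and for Csf1 1460220_a_at by 0.45 ± 0.12 (adjusted p = 0.0224). These were 3 of the 15 probe sets, against 15.9% of all probe sets. The Apoe call was lost in 12 of the 15 fits that left out 1 array, with adjusted p up to 0.127. The tests against P30 and against the cultures share the P7 arrays.

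Markers of other cells also differed between genotypes in culture, where 2.07% of all probe sets were called higher. Of 20 probe sets for 10 genes of meningeal fibroblasts, 11 of 8 genes were higher in Cstb-/- cultures, led by Col1a1 (log2 difference 3.59), Col3a1 (3.49) and Col1a2 (3.41). The mean of this list was 1.25 to 1.35 on the Cstb-/- arrays and -0.05 to 0.09 on the wild type arrays, and 5 genes were called without Cstb-/- array 1 or without Cstb-/- array 3. Of 33 probe sets for 10 astrocyte genes, 6 of 2 genes were higher, the gap junction gene Gja1 (up to 1.67) and Aldh1l1 (0.76). That list averaged 0.58, 0.41 and 0.59 on Cstb-/- arrays 1, 2 and 3, and 0.21, -0.10, -0.08 and -0.03 on wild type arrays 4, 5, 7 and 8. Apoe was lowest on array 2 among the Cstb-/- cultures and highest on array 4 among the wild type cultures, as was this list. The number of astrocyte genes called was 1 without Cstb-/- array 1 or 3 or without wild type array 5, 7 or 8, and 5 without Cstb-/- array 2. By contrast, 0 of 27 probe sets of microglia and macrophage genes were called (6 at an unadjusted p under 0.05, 0 by the test of the methods), and that list averaged -0.09 to -0.05 on the Cstb-/- arrays and -0.06 to 0.09 on the wild type arrays. The part of these cells in the Axl, Apoe and Csf1 values was not tested.

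The genes around the members were followed from lists of 24 to 32 measured genes. Other genes raised in disease-associated microglia had 75 probe sets for 32 genes. At P30, 8 probe sets of 7 genes were higher, against 0.138% of all probe sets, and none was lower. They were Cd52, a surface glycoprotein of leukocytes (2.08), the lysosomal glycoprotein Cd68 (1.46), the MHC class I light chain B2m (1.21 and 1.12), the lectin Lgals3 (1.17), the chemokine Ccl6 (1.11), and, with the smallest differences, the lysosomal enzyme Gusb (0.86) and progranulin, Grn (0.49). Their median over all 75 was 0.21. With 1 array left out, 5 to 8 genes were called. At P7 none was called (6 probe sets at an unadjusted p under 0.05, 0 by the test of the methods). In culture Gusb (1.19) and Timp2, an inhibitor of metalloproteinases (1.04), were higher and Lgals3bp, which binds Lgals3, was lower (-1.22). These were 2 of 75 probe sets higher and 1 lower, against 2.07% of all probe sets called higher and 2.54% called in either direction, which is near the background. This count of 2 higher genes fell to 0 without Cstb-/- array 3, and the fall of Lgals3bp was also not called there. It was 1 without Cstb-/- array 1 or wild type array 5, 7 or 8, and 4 without Cstb-/- array 2.

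The list of Tyrobp-coupled signalling held receptors, adaptors, kinases and phosphatases. Of 46 probe sets for 24 other genes of this signalling, 1 was higher at P30, against 0.138% of all probe sets. It was that of Fcer1g, the adaptor of Fc receptors that is built like Tyrobp. Fcer1g was 0.89 to 1.12 on the Cstb-/- arrays and -0.11 to 0.14 on the wild type arrays, a 2.00-fold increase (log2 difference 1.00, adjusted p = 0.00338), and this call was kept in all 6 fits with 1 array left out. The list's median was 0.03, and 9 of the 46 probe sets had an unadjusted p under 0.05, against 7.72% of all probe sets. No kinase or adaptor under Tyrobp was called. The adaptor Blnk had 0.72 (1.65-fold, unadjusted p = 0.00324, adjusted p = 0.356) and the phosphatase Ptpn6 had 0.38 in 1 of 2 probe sets (unadjusted p = 0.00154, adjusted p = 0.278), both with all Cstb-/- arrays above all wild type arrays. The 4 probe sets of Syk lay between -0.09 and 0.18, and the lowest log2 difference was -0.20 (a probe set of Pik3cd, adjusted p = 0.736). None of the list was called at P7 (2 probe sets at an unadjusted p under 0.05) or in culture (7), and the test of the methods called 0 in both.

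Of 60 probe sets for 25 ligands, receptors and partner proteins of the members, 5 of 3 genes were higher at P30. Of all probe sets 0.138% were called higher at this age. Cd44, the hyaluronan receptor that also binds osteopontin, was higher by 1.66 and 1.46 in 2 probe sets, Itgb2, the beta chain that pairs with Itgax, by 1.02, and Csf1r, the receptor of Csf1, by 0.90 and 0.53. So the partners of Itgax and Csf1 were called where Itgax and Csf1 themselves were not, although the difference between partner and member was not tested. This count was 1 gene without Cstb-/- array 1 or 3 or wild type array 1. The lowest was a probe set of Gas6, the Axl ligand (-0.26, adjusted p = 0.521). At P7 none was called (7 at an unadjusted p under 0.05, 0 by the test of the methods). In culture 5 probe sets of 2 genes were higher, against 2.07% of all probe sets. They were the cholesterol transporter Abca1 (1.14 and 0.91) and the tetraspanin Cd151 (0.85, 0.72 and 0.65). This gene count was 0 without Cstb-/- array 1 or 3 or wild type array 7 or 8, and 1 without wild type array 5.

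Homeostatic microglial genes are those that fall in disease-associated microglia in mouse models. Of 23 probe sets for 16 of them, 1 was higher at P30, against 0.138% of all probe sets. It was Olfml3 (0.66, limma, adjusted p = 0.0189), and none was called lower. The purine receptor P2ry12 differed by 0.44 (adjusted p = 0.61), the fractalkine receptor Cx3cr1 by 0.56 and 0.59 (adjusted p = 0.272 and 0.286), Tmem119 by 0.04 (adjusted p = 0.946), and the lowest, Ltc4s, by -0.27 (adjusted p = 0.553). The list had a median of 0.12 and averaged 0.17 to 0.30 on the Cstb-/- arrays, against -0.04 to 0.06 on the wild type arrays. The Olfml3 call was lost without Cstb-/- array 1 or 3 and without wild type array 1 or 2. None was called at P7 (1 at an unadjusted p under 0.05, 0 by the test of the methods). In culture Tgfbr1 (0.58) alone was called higher, 1 of 23 probe sets against 2.07% of all probe sets. It or others were called (0 to 3 genes) depending on the array left out. The count was 0 without Cstb-/- array 1 or 3 or wild type array 5, 7 or 8, and 3 without Cstb-/- array 2.

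Many markers of the microglia and macrophage line were higher at P30, as were Tyrobp, Clec7a and Lpl among the members. Of 27 probe sets for 15 genes, 13 of 9 genes were higher, against 0.138% of all probe sets. They were led by the complement genes C1qb (up to 2.09), C1qa (1.83) and C1qc (1.76), and by Ly86 (1.65), Laptm5 (1.55) and the protease gene Ctss (1.32). The median of the list was 0.64, and the means were 0.83, 0.71 and 1.00 on the Cstb-/- arrays, against -0.10, 0.02 and 0.08 on the wild type arrays. Both the Csf1r probe sets counted above are also in this list. The number of genes called was 4 without Cstb-/- array 1, 5 without Cstb-/- array 3, 5 without wild type array 1 and 4 without wild type array 2. Markers of perivascular and meningeal macrophages (11 probe sets) and of blood leukocytes (12 probe sets) had 0 called at P30, with 3 and 1 at an unadjusted p under 0.05, against 7.72% of all probe sets, and 0 by the test of the methods. The leukocyte list ran from -0.37 to 0.86 on the Cstb-/- arrays and from -0.37 to 0.55 on the wild type arrays. Of astrocyte genes, Gfap alone was higher, in 3 of 33 probe sets (2.36, 2.15 and 1.75), against 0.138% of all probe sets. Of the 33 astrocyte probe sets, 30 had a difference above 0 and 15 an unadjusted p under 0.05, with a median of 0.18, and the list averaged 0.30 to 0.36 on the Cstb-/- arrays and -0.01 to 0.02 on the wild type arrays. Astrocytes also express Apoe and Cd9, and their part in those values was not tested. Genes of the choroid plexus, the tissue that makes cerebrospinal fluid, averaged -2.87, 0.65 and -2.73 on Cstb-/- arrays 1, 2 and 3, whereas Tyrobp on these arrays was 2.24, 2.14 and 2.23. How many more microglia, or how much more RNA per cell, stood behind the members was not tested.

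**Figure D4:**
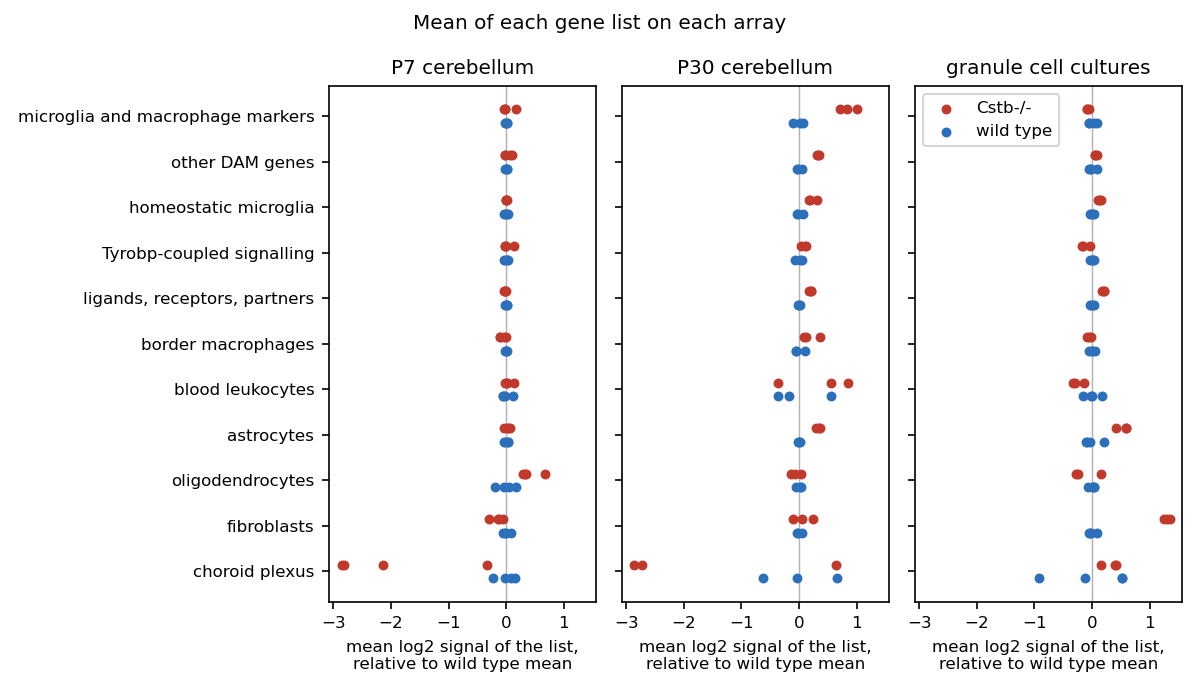
Mean log2 signal of the probe sets of each gene list on each array, relative to the wild type mean, in the 3 experiments; points are single arrays, Cstb-/- in red above wild type in blue. At P30 the microglia and macrophage markers lie between 0.71 and 1.00 on the Cstb-/- arrays, and in culture the fibroblast markers lie between 1.25 and 1.35.

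Over all 21 arrays, each experiment centred on its own mean, the genes whose pattern was most like that of Tyrobp were those high in the P30 Cstb-/- cerebella alone. Outside the members the 10 highest Pearson correlations were those of Cxcl13 (r = 0.98), Cd52 (0.974), C1qb (0.972), Mpeg1 (0.966), C1qa (0.95), C1qc (0.939), Cd14 (0.927), Lyz1 (0.924), Plek (0.921) and Cd44 (0.914). Among the members Clec7a had 0.973, Lpl 0.899 and 0.743, Cd9 0.728 and Trem2 0.702 for 1421792_s_at and -0.137 for 1421226_at, whereas the 4 Csf1 probe sets lay between -0.168 and 0.192. The arrays share their experiment and the genotype difference at P30, and these values describe that pattern. When each group was centred on its own mean, r with Tyrobp lay between 0.085 (Cd44) and 0.766 (Lyz1) for these 10 genes, with 0.664 for Cd52, 0.583 for C1qb and 0.168 for Cxcl13. Among the members it was 0.384 for Clec7a and -0.47 for Lpl 1415904_at.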

How the data were processed

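RNA of P7 and P30 cerebella and of granule cell cultures had been hybridized to Affymetrix mouse arrays. The deposited values are log2 signals, for which the authors used RMA (background adjustment, quantile normalization and summary; version not given in the sources used here) and then centred each probe set on its median. That median was 0 within each experiment (to within 5e-07), so filters on dim signals, intensity trends and a new normalization could not be made. Of 45101 probe sets, 64 controls were left out. In the annotation, 34945 of the rest had 1 gene symbol, 932 several and 9160 none.

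Cstb-/- was compared with wild type within each experiment by limma (version 3.58.1, R 4.3.3), 2-sided, with Benjamini-Hochberg correction over 45037 probe sets. A probe set was called at a fold of 1.3 and an adjusted p under 0.05 (cerebella) or 0.01 (cultures), after the methods, whose t-test was an alternative. Differences of effects were contrasts in 1 fit of both experiments. Each array was a separate sample. The methods give the cultures by mice per genotype, but not whether each array held cells of its own mouse, so in culture p-values measure the spread between these samples. The number of arrays limits the precision.

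Members and gene lists were chosen with earlier results of these data known. Differences of all member probe sets are plotted for each experiment, and the text gives values for part of them. Of each other list, up to 6 called genes with the largest and 3 with the smallest differences are given. Other genes named in a list were chosen after their values were seen. Lists of endothelial, oligodendrocyte, granule neuron and Purkinje cell markers were measured too, with 0 called at P7 and P30 (0 to 20 probe sets of each at an unadjusted p under 0.05). In the cultures 3 of 28 oligodendrocyte probe sets, of Pdgfra and Olig2, were called higher, against 2.07% of all probe sets. Only 6 of those 28 had a difference above 0, with a list median of -0.17. Fat2 of the granule neuron list and Rora of the Purkinje list were called lower, in 1 probe set each. Of these lists 10 of 15 and 11 of 21 probe sets lay above 0, with medians of 0.06 and 0.02. Fibroblast, choroid plexus and astrocyte markers had 0 called at P7, and fibroblast and choroid plexus markers 0 at P30 (2 to 12 probe sets at an unadjusted p under 0.05). Border macrophage and leukocyte markers had 0 called at P7 and in culture (1 to 7), as had endothelial and choroid plexus markers in culture (4 each). Tables were made in Python 3.11.15 with numpy 2.4.6 and pandas 2.3.3.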

Additional observations from a re-analysis of the deposited data

Results flagged for a closer look

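In 6 of 45 groups of 4 arrays, 1 array lay far from the other arrays of its group. A test of this kind marks about 1 group in 20 by chance. At P7 these were Cd9 on Cstb-/- array 5 (-0.12, the others -0.05 to -0.04) and Cd9 on wild type array 3 (0.26, the others -0.12 to -0.06). In the wild type cultures they were Tyrobp on array 7 (-0.0249), Clec7a on array 8 (-0.19), Axl 1438621_x_at on array 8 (0.0208) and Csf1 1425154_a_at on array 4 (-0.10). For Tyrobp, Axl and Csf1 the other 3 wild type arrays had exactly equal values (0.01, -0.01 and 0.03), so these departures are small.

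The effect of the knockout differed between experiments for 6 probe sets, by a test of the difference itself. It was larger at P30 than at P7 for Tyrobp (2.13, adjusted p = 2.04e-07), Lpl 1415904_at (2.19, adjusted p = 6.8e-06) and Clec7a (1.87, adjusted p = 2.92e-05), 3 of 15 probe sets against 0.127% of all. It was larger in culture than at P7 for Axl 1423586_at (1.03, adjusted p = 0.00136), Csf1 1460220_a_at (0.45, adjusted p = 0.0224) and Apoe (0.64, adjusted p = 0.0451), 3 of 15 against 15.9% of all, a share near the background. The Apoe call was lost in 12 of 15 fits that left out 1 array.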

How the results depend on the processing

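Of 1275 values recomputed for 75 results under other settings, 1230 kept their side of the threshold, 32 lost it, 13 gained it and 0 called values changed sign. The P30 count of 4 called probe sets was 0 under the methods' t-test corrected over all 45037 probe sets, which called 1 probe set in all, against 65, and 6 when that test was corrected over probe sets past the fold (210 in all). It was 3 to 4 with 1 array left out, 5 with array weights and 3 with sex as a covariate, which at P30 amounts to leaving out Cstb-/- array 1. With probe sets averaged per gene, 4 genes were called, against 3. The gains were Cd9 and, in the t-test past the fold, Trem2 1421792_s_at. The culture count of 1, Axl, was 0 under both forms of the t-test, with robust variances, with sex as a covariate and with probe sets averaged per gene, 2 with array weights, 4 in 1 fit over all groups, and 0 to 1 with 1 array left out. Probe sets called over the whole array numbered 32 to 5725 in cultures over these settings, against 1144, at P30 1 to 226, against 65, and at P7 1 to 1108, against 3. The P7 count of members was 0 in each. The age contrast had 3 members, 4 with sex, and the culture contrast 3, 2 to 4 with 1 array left out. The cause was not tested.

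Replicate numbers did not pair the arrays: same-numbered arrays correlated at 0.00575 to 0.168 at P7 and at -0.178 to -0.0337 at P30, and 1 and 0 Cstb-/- arrays correlated best with their own number. With the number as a replicate block, 0 member probe sets were called at P7, 3 at P30 (without Lpl 1431056_a_at) and 3 in the age contrast. No paired analysis was possible for the cultures because the genotypes share no number.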
